A study of Mus musculus with 2 samples.

Results

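Ventricular heart muscle cells of adult mice were ranked by how much early-response RNA each cell held, and the cells at both ends of the ranking were compared for all other genes. The load of a cell was the summed count of Fos, Jun, Junb, Egr1, Atf3 and Ier2 transcripts divided by all nuclear-encoded transcripts of that cell. Within each of 4 sequencing libraries (A to D) and each ventricular chamber, left (LV) or right (RV), the cells were split by load into 3 groups of nearly equal size, of which the top one is called high-load and the bottom one low-load. Of 404 labelled cells in the series, 192 were labelled ventricular in the study of heart chambers, 175 of these had at least 10000 gene transcripts, and 56 high-load and 56 low-load cells were compared. The remaining 63 cells formed the middle group. The groups were thus chosen by the measured values of the 6 genes, so the levels of these genes are a description and support nothing below.

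All cells came from adult wild-type C57BL/6 mice, those of the chamber study from mice of about 3 months of age, and the chamber study's cells were neither treated nor fixed. Hearts were digested with collagenase and protease on a perfusion apparatus for 9 min at 1.5 mL/min, and single cells were sorted into plates on a cytometer for large particles. The method, SCRB-seq, reads polyadenylated RNA with a barcode for the cell and a unique molecular identifier (UMI) for the molecule, so that 1 UMI stands for 1 captured transcript. No animal was named for any cell, so all cells belong to 1 sample, no difference was tested, and every interval below is an exact 95% Clopper-Pearson interval that covers counting error only. A second set of 72 ventricular cells, sorted live or after ethanol fixation, was split in the same way, as cells that the rule had not used.

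Early-response genes are switched on within minutes of a stimulus by factors that are already present in the cell, and their transcripts are short-lived. Fos, Jun and Junb are subunits of the AP-1 transcription factor, Egr1 is a zinc-finger activator, Atf3 is a stress-induced repressor of the same leucine-zipper class, and Ier2 is a small nuclear protein. Enzymatic digestion and handling of tissue is known to switch these genes on, as are stretch, adrenergic stimulation and growth factors in the living heart. No undigested tissue was analysed here, so the part of the load that was present before digestion cannot be told apart from the part that came after.

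The load varied widely from cell to cell. It ran from 0, in 1 cell, to 5695 per 1000000 nuclear-encoded UMIs, with medians of 2500 in high-load, 1527 in middle and 788 in low-load cells. A high-load cell held a median of 67 UMIs of the 6 genes and a low-load cell 22. The 6 genes together took 0.174% of nuclear-encoded UMIs over the 175 cells, to which Jun gave 29.3%, Fos 20.4%, Egr1 17.1%, Atf3 16.8%, Ier2 8.61% and Junb 7.79%. In the 8 combinations of library and chamber, called strata here, the lowest load in the high-load group lay between 1450 and 2737 and the highest load in the middle group between 1176 and 2721. At the lower edge, the lowest load in the middle group lay between 793 and 1638 and the highest in the low-load group between 783 and 1614. A cell with a high load in 1 stratum could therefore have been a middle or low cell in another.

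The 6 genes did not all vary together. Levels are given as CPM, counts per 1000000 nuclear-encoded UMIs of the summed cells, with mitochondrially encoded genes outside the total. Fos stood at 577 CPM in high-load and 167 CPM in low-load cells, Egr1 at 494 and 135 CPM, Ier2 at 276 and 77.8 CPM, and Junb at 217 and 75.4 CPM. Jun stood at 758 and 302 CPM, and Atf3 at 387 and 157 CPM. Over the 175 cells, rank correlations between pairs of the genes ran from 0.078 for Junb with Atf3 to 0.42 for Fos with Jun, with a median of 0.24. The summed Fos, Egr1 and Ier2 share had a rank correlation of 0.52 with the summed Jun, Junb and Atf3 share. These pairs share each cell's depth and total, so the correlations are descriptions.

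**Figure D1:**
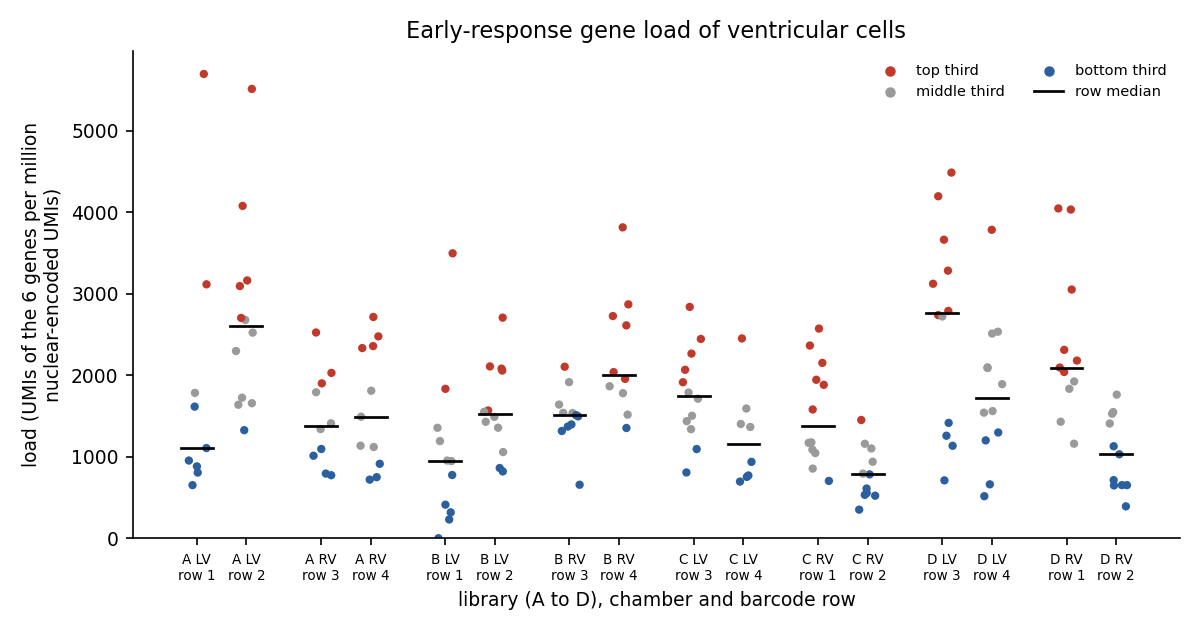
Load of each of the 175 cells (UMIs of the 6 genes per 1000000 nuclear-encoded UMIs, linear axis) by library, chamber and row of cell barcodes, with 1 point per cell, colours for the 3 load groups and a bar for the median of each row. In library D the high-load RV cells all lie in 1 row and the low-load RV cells in the other.

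The load also differed between the 2 barcode rows of up to 12 wells that held each stratum. The deposited tables do not say what a row stands for. The row with the higher median load held 45 of the 56 high-load cells, and the row with the lower median held 42 of the 56 low-load cells. The ratio of the medians of the 2 rows ran from 1.08 in RV cells of library A to 2.35 in LV cells of library A. In RV cells of library D, row 1 held all 7 high-load cells and row 2 all 7 low-load cells. The comparison was therefore repeated with the load groups set within each of the 16 rows, which gave 53 high-load and 53 low-load cells with median loads of 2451 and 882. Most of these cells are the same as before and UMIs were summed over rows without equal weights, so this repeat is not independent evidence. Its values are given below as the comparison within rows.

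Depth was similar in both groups, and some other features of the cells were not. High-load cells had a median of 50286.5 gene UMIs and low-load cells 46252.5, over a range of 10352 to 223454 in all cells. The share of gene UMIs from mitochondrially encoded genes had a median of 39.2% in high-load and 43.1% in low-load cells. Genes detected in 10000 UMIs drawn per cell had medians of 1984.5 and 1873, with the high-load median higher in only 5 of 8 strata, as for gene UMIs. Malat1, a long non-coding RNA that stays in the nucleus, had a median of 3665 CPM in high-load and 2715 CPM in low-load cells and, by the medians over cells, was higher in the high-load group in 8 of 8 strata. The part of these features in the gene differences below was not tested. The label of ventricular myocyte held in both groups: Myl2, the ventricular light chain, stood at 9490 CPM in high-load and 11585 CPM in low-load cells, and Nppa, an atrial hormone gene, had 0 and 1 UMI.

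Apart from the 6 genes, more genes were higher than lower in high-load cells. Of 6343 genes with at least 60 UMIs over both groups, 1210 (19.1%) were at least 1.5-fold higher in high-load cells and 459 (7.24%) at least 1.5-fold lower, on the log2 scale with 5 CPM added to each level. A stricter count asked for the same side in at least 7 of 8 strata and at most 25% of a gene's UMIs in 1 cell, which 256 genes (4.04%) met on the higher and 128 (2.02%) on the lower side. They are called steady below. The median log2 ratio over all 6343 genes was 0.08, and it moved to 0.33 with all gene UMIs as the total and to -0.05 with TMM scaling. The share of the called genes that were higher was 72.5%, against 92.7% with all gene UMIs as the total, 54.5% with TMM and 61.0% with median-of-ratios scaling, so the balance between both sides rests on the scaling. Within rows, 1426 of 6227 genes (22.9%) were higher and 425 (6.83%) lower. In the live and fixed cells, 565 of 3429 genes (16.5%) were higher and 247 (7.2%) lower.

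Transcription factors of the early-response class other than the 6 were higher in high-load cells. Of 36 on the list, 21 reached 60 UMIs. Of these, 14 were at least 1.5-fold higher and 0 lower, beside 19.1% and 7.24% of all genes. Their median log2 ratio was 0.93, against 0.08 for all genes, with an SD of 0.43 over the 4 libraries and values of 1.53 in library A, 0.69 in B, 0.86 in C and 0.55 in D. Within rows the median was 0.77, with 14 of 21 higher and 1 lower, beside 22.9% and 6.83% of all genes. Members that passed the filter only through a high level in high-load cells had to differ, so these counts describe the 21 and not the list.

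Jund, another AP-1 subunit, was higher in all 8 strata. Jund stood at 96.8, 125 and 270 CPM (lowest, median and highest stratum) in high-load and at 19.4, 63.6 and 103 CPM in low-load cells. The ranges of the groups overlapped between strata. The fold was 2.28 (interval 1.80 to 2.90), and within rows Jund was higher in 14 of 16 rows. Hes1, a repressor downstream of Notch signalling, was also higher in 8 of 8 strata, at 33.4, 55.4 and 156 CPM against 7.34, 21.0 and 47.2 CPM (fold 2.52, interval 1.78 to 3.62).

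Of the Krüppel-like factors, zinc-finger proteins with many early-response members, Klf2, Klf4 and Klf6 were higher with large differences between cells. Klf9 was 1.77-fold higher (interval 1.43 to 2.19) in 7 of 8 strata. Klf15 differed little, at 22.6 and 19.8 CPM (interval of the fold 0.70 to 1.88), and was higher in only 4 of 8 strata. Klf2 stood at 24.5, 117 and 695 CPM over the strata of high-load and at 19.0, 42.0 and 92.3 CPM over those of low-load cells, and was higher in 7 of 8 strata. The ranges overlapped, and 36.4% of its UMIs lay in 1 cell. Klf6 stood at 27.1, 86.6 and 171 CPM against 0, 27.7 and 58.1 CPM, a 2.83-fold difference of the summed levels (interval 2.06 to 3.95). Klf4 was 4.25-fold higher with 39.9% of its UMIs in 1 cell. Klf2 and Klf4 are also known from blood vessel endothelium, and the summed endothelial RNA, described further on, was higher in high-load cells; its part in these ratios was not tested. When cells over 0.1% of vessel and stroma RNA were left out, the log2 ratio of Klf2 was 1.04 in place of 1.97, that of Klf4 0.44 in place of 1.93 and that of Klf6 -0.00 in place of 1.37.

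Irf1, an interferon regulatory factor, had the largest fold of the factors, at 45.1 CPM in high-load and 6.18 CPM in low-load cells (7.31-fold, interval 3.78 to 15.8, from 80 and 10 UMIs). It was higher in 7 of 8 strata, with a log2 ratio of 3.07 in LV and 0.82 in RV cells. Id3, an inhibitor of helix-loop-helix factors, was 6.93-fold higher but in only 5 of 8 strata, with 37.0% of its UMIs in 1 cell. Fosb, an AP-1 subunit, was 3.99-fold higher in 7 of 8 strata, with 31.1% of its UMIs in 1 cell. Nr4a1, an orphan nuclear receptor of the same early class, differed less, at 148 and 95.7 CPM (1.54-fold, interval 1.26 to 1.90).

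Not every factor followed the load. Srf, the factor that binds serum response elements, had a log2 ratio of -0.43, the lowest of the 21, and -0.00 within rows. Cebpb, a leucine-zipper factor of acute responses, had -0.19, and -0.69 within rows. Atf4, the effector of the integrated stress response, had 0.35, and -0.29 within rows.

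Of the genes that feed back on signalling, 14 were past the fold on the higher side and 17 were not past it. The list held 47 genes, of which 31 reached 60 UMIs, and 14 of these were at least 1.5-fold higher and 0 lower, beside 19.1% and 7.24% of all genes, with a median log2 ratio of 0.55 (SD 0.13 over the 4 libraries). Within rows 9 of 31 were higher and 0 lower, beside 22.9% and 6.83% of all genes, with a median of 0.33 against 0.11 for all genes. As for the factors, members that reached 60 UMIs only through high-load cells had to differ, so the counts describe the 31.

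Zfp36, which encodes tristetraprolin, an RNA-binding protein that speeds the decay of early-response messengers, was higher in high-load cells. It stood at 147, 238 and 421 CPM over the strata of high-load and at 55.5, 87.5 and 151 CPM over those of low-load cells. Zfp36 was higher in the high-load group of all 8 strata and in 14 of 16 rows, and the middle group lay between at 170 CPM. The summed levels of 256 and 85.9 CPM differed 2.98-fold (interval 2.46 to 3.63), and the log2 ratio of 1.52 was 1.55 without cells over 0.1% of vessel and stroma RNA. In the live and fixed cells it was 1.12.

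Socs3, which blocks cytokine receptor signalling, stood at 52.5 and 12.3 CPM (4.25-fold, interval 2.60 to 7.27) and was higher in 7 of 8 strata. Errfi1, an inhibitor of the epidermal growth factor receptor, was 5.67-fold higher (interval 2.88 to 12.4) in 6 of 8 strata. Btg2, a protein that recruits messenger deadenylases, was the most abundant of the list at 397 and 225 CPM (1.76-fold, interval 1.55 to 2.003), with log2 ratios of 0.80, of 0.57 within rows and of 1.21 in the live and fixed cells. Dusp1, a phosphatase that switches off MAP kinases, stood at 163 and 100 CPM (1.63-fold, interval 1.34 to 1.99). Hbegf, a ligand of the epidermal growth factor receptor, was 2.46-fold higher (interval 1.62 to 3.81) in 7 of 8 strata. Ccn2, a matrix protein known as connective tissue growth factor, had a log2 ratio of 1.52 but 0.34 within rows, and Ier3 had 0.67 but -0.00. Mcl1, an inhibitor of apoptosis, differed little, at 168 and 140 CPM.

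The full cyclic AMP response element, TGACGTCA, stood in a few promoters of the early-response genes. The windows searched ran from 250 bases before to 50 after each RefSeq start (GRCm38.p6), on both strands, for 46 of the 52 measured early-response genes outside the 6. TGACGTCA was found in 4 of 23 genes (17.4%) that were at least 1.5-fold higher, in 1 of 23 (4.35%) under that fold, in 188 of 4850 genes measured (3.88%) and in 549 of 27025 genes of the table (2.03%). Its shorter form TGACG, which the full element contains, was found in 52.2% of the higher and 60.9% of the other early-response genes and in 38.5% of genes measured. The AP-1 site TGANTCA was found in 8.70%, 4.35% and 6.12%, the CArG box that Srf binds in 8.70%, 4.35% and 1.98%, and the NF-kappaB site in 17.4%, 4.35% and 5.98%. Of the steady genes with a window, TGACGTCA stood in 8 of 202 higher (3.96%) and 6 of 91 lower (6.59%). These are matches of letters in small sets and say nothing of binding.

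The stretches below show the element in capitals in the 4 early-response genes at least 1.5-fold higher that hold it, and in Ccnl1, the steady gene with the highest ratio. The other 2 stretches show the CArG box of Zfp36, higher with load, and of Acta1, the gene with the lowest ratio. Each is written 5′ to 3′ on the strand of its gene.
Errfi1, chr4:150854970-150855069, plus strand, element from 51 bases before the start: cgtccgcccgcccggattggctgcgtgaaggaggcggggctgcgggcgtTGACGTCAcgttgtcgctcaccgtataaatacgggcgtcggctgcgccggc
Btg2, chr1:134079268-134079367, minus strand, element from 166 bases before the start: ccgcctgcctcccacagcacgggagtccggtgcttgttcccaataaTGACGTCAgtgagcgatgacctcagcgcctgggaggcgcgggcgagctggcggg
Ppp1r15a, chr7:45526269-45526368, minus strand, element from 12 bases before the start: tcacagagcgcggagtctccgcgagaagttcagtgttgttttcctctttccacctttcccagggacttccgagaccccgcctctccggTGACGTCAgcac
Dusp1, chr17:26508562-26508661, minus strand, element from 143 bases before the start: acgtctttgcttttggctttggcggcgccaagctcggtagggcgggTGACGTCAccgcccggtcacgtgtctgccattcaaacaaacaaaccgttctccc
Ccnl1, chr3:65958250-65958349, minus strand, element from 18 bases before the start: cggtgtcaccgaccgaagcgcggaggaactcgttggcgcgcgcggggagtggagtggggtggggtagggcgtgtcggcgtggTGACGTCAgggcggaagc
Zfp36, chr7:28379232-28379331, minus strand, CArG box from 58 bases before the start: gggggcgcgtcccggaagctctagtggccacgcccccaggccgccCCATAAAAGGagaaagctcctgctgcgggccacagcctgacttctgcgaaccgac
Acta1, chr8:123894794-123894893, minus strand, CArG box from 73 bases before the start: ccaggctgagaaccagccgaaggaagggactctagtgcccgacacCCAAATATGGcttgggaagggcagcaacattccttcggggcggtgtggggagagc
Ppp1r15a, a phosphatase subunit that restores translation after stress, was 1.83-fold higher (interval 1.09 to 3.16, from 46 and 23 UMIs) and had a log2 ratio of 0.12 within rows. Zfp36 and Acta1 both hold a CArG box close to the start and lay on opposite sides of the comparison.

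**Figure D2:**
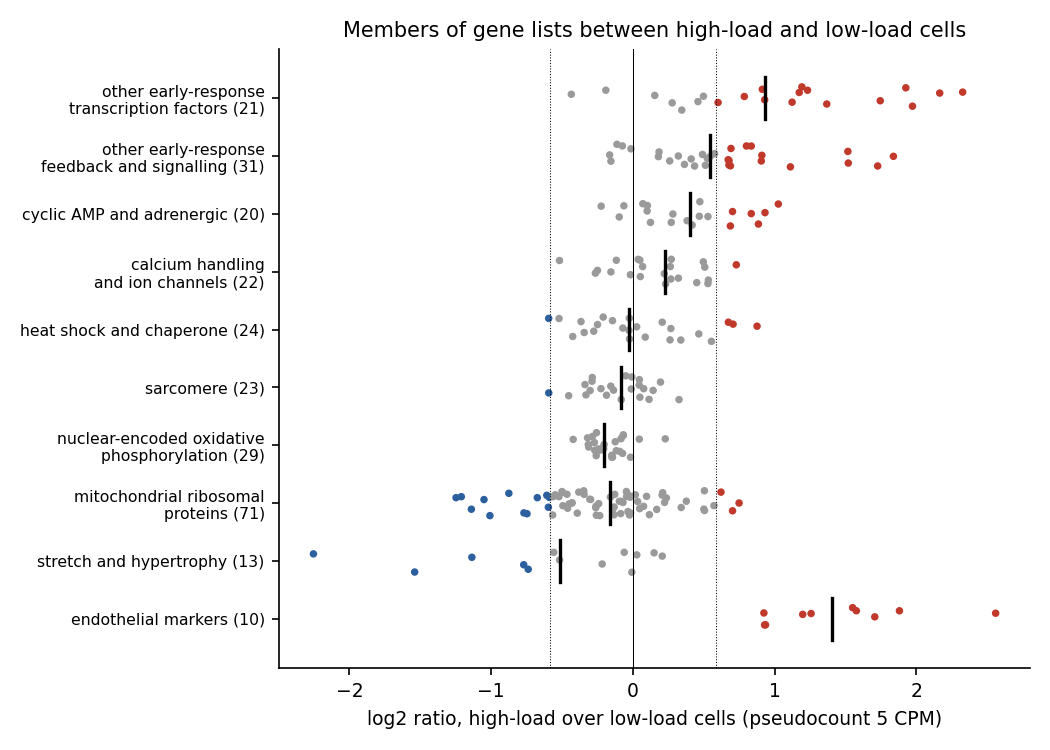
Log2 ratio of high-load over low-load cells (x axis, 5 CPM added) for each measured member of 10 gene lists, with 1 point per gene, a bar for the list median, dotted lines at 1.5-fold and the number of members in brackets. The early-response lists lie to the right with medians of 0.93 and 0.55, and the stretch list to the left with -0.52.

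Genes of cyclic AMP signalling, through which adrenergic receptors raise the force and rate of the heart, had 6 of 20 measured members at least 1.5-fold higher and 0 lower, beside 19.1% and 7.24% of all genes. The median log2 ratio was 0.40 (SD 0.28 over the libraries), at 0.16 in library A, 0.61 in B, -0.01 in C and 0.45 in D. Within rows 5 of 19 were higher, beside 22.9% of all genes, with a median of 0.19 against 0.11 for all genes, so that the list lay near the background there. In the live and fixed cells the median was 0.39. Pde4b, a phosphodiesterase that breaks down cyclic AMP, stood at 192, 333 and 681 CPM over the strata of high-load and at 90.6, 175 and 286 CPM over those of low-load cells. It was higher in 8 of 8 strata, with a fold of 2.07 (interval 1.80 to 2.38) and log2 ratios of 1.03, of 0.59 within rows and of 1.05 in the live and fixed cells. Pde4d, its close relative, was also higher in 8 of 8 strata, at 1024 and 736 CPM, but had a log2 ratio of only 0.47, and 0.19 within rows. Creb1, the factor that binds the cyclic AMP response element, stood at 43.5 and 20.4 CPM and was higher in 5 of 8 strata. The other members past the fold, named after their values were seen, were Adrb1, the main cardiac beta-adrenergic receptor (0.89), Crebbp, the coactivator of Creb1 (0.84), Gnai2, an inhibitory G protein subunit (0.70), and Adcy5, an adenylyl cyclase (0.69).

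Calcium handling and ion channel genes differed less. Of 22 measured, 1 was at least 1.5-fold higher and 0 lower, beside 19.1% and 7.24% of all genes. The median log2 ratio was 0.23, and 0.02 within rows, against 0.08 and 0.11 for all genes. The 1 gene was Slc8a1, the sodium-calcium exchanger that removes calcium after each beat, at 712, 1050 and 1349 CPM over the strata of high-load and at 484, 627 and 707 CPM over those of low-load cells. The strata of the groups did not overlap. Its fold was 1.66 (interval 1.54 to 1.80), with log2 ratios of 0.73, of 0.50 within rows and of 0.40 in the live and fixed cells. The last of these was -0.19 in live cells alone and 0.97 in fixed cells alone. Cacna1c, the pore of the L-type calcium channel, had 0.53, and Ryr2, the calcium release channel, 0.32.

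Acta1 was the gene with the lowest ratio of the comparison. It encodes skeletal muscle alpha-actin, which the fetal heart uses and which the adult ventricle takes up again under strain. It stood at 20.9, 99.9 and 146 CPM over the strata of high-load and at 133, 348 and 1137 CPM over those of low-load cells. It was lower in the high-load group of all 8 strata, and the ranges met only at their ends. The summed levels were 89.2 CPM in high-load, 260 CPM in middle and 444 CPM in low-load cells, a 4.98-fold difference between the ends (interval 4.19 to 5.95).

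A minority of cells carried most of the Acta1 RNA. Of the 56 high-load cells 14 exceeded 100 CPM, against 27 of 63 middle and 33 of 56 low-load cells. Above 1000 CPM stood 0 high-load, 3 middle and 9 low-load cells. The log2 ratio was -3.03 in LV and -1.14 in RV cells, a difference that was not tested. Within rows it was -1.87, with Acta1 lower in 13 of 16 rows, although in 7 of 8 strata the row with less load also held more Acta1. In the live and fixed cells it was -1.41, from 54.5 and 153 CPM, with -0.48 in live cells alone and -1.70 in fixed cells alone.

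The list of stretch and hypertrophy genes to which Acta1 belongs leaned lower in the chamber study. Of 13 measured, 0 were at least 1.5-fold higher and 5 lower, beside 19.1% and 7.24% of all genes. The median log2 ratio was -0.52 (SD 0.42 over the libraries), and -0.34 within rows. In the live and fixed cells it was -0.04, with 1 of 13 higher and 1 lower. By library the median was -0.72 in A, -0.52 in B, -0.98 in C and 0.01 in D. Nppb, which encodes B-type natriuretic peptide, stood at 22.8, 32.8 and 204 CPM over the strata of high-load and at 65.9, 174 and 349 CPM over those of low-load cells. It was lower in 7 of 8 strata (3.07-fold, interval 2.44 to 3.88), but its log2 ratio of -1.54 was -0.56 within rows and -0.06 in the live and fixed cells. Ankrd1, an ankyrin repeat protein of the titin spring and a known stretch marker, was 2.22-fold lower (interval 2.003 to 2.45) at 323 and 715 CPM, with 737 CPM in the middle group. Its log2 ratio was -1.14, and -1.10 within rows. The other genes past the fold were its relative Ankrd23 (-0.77) and the Z-disc gene Synpo2l (-0.74). These 3 were named after their values were seen.

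Other abundant members of the stretch list differed little. Myh7, the slow myosin that is also a fetal gene, had a log2 ratio of -0.01 at 532 and 534 CPM. Csrp3, a Z-disc protein, had -0.06, Xirp2 had -0.22 and the small heat shock gene Hspb1 had 0.21.

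**Figure D3:**
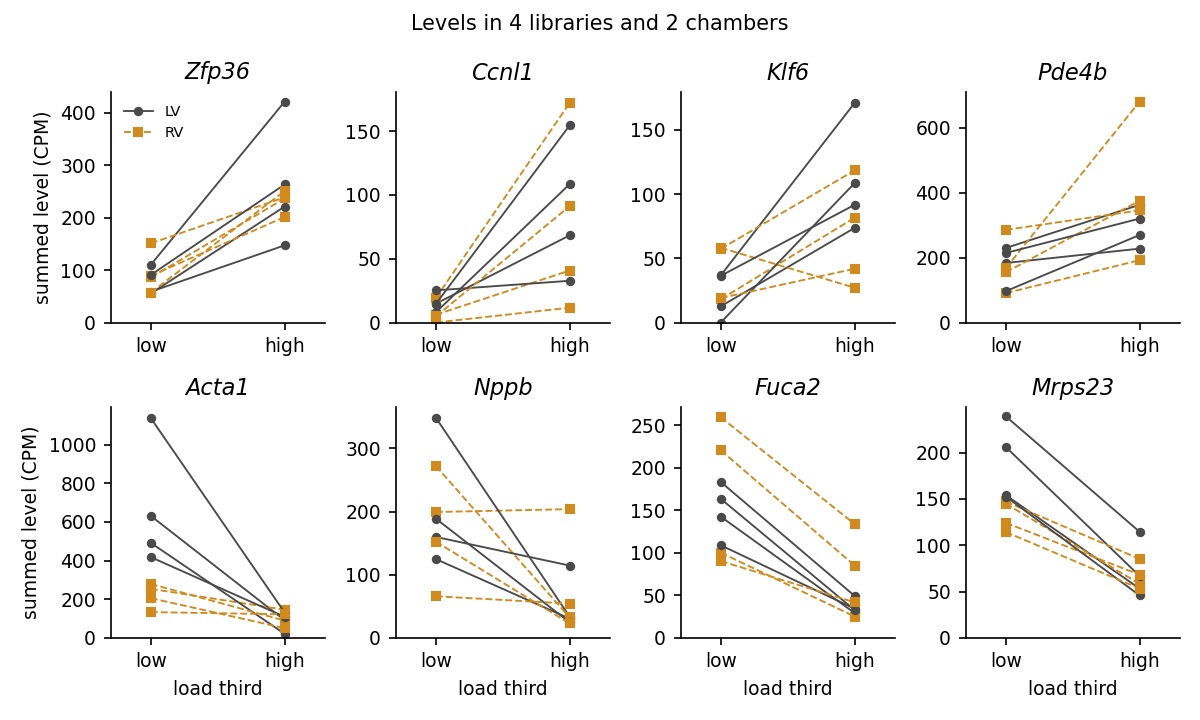
Summed level (CPM, linear axes from 0) in low-load and high-load cells for 8 genes, with 1 line per library and chamber (solid for LV, dashed for RV). Every line of Zfp36, Ccnl1 and Pde4b goes up and every line of Acta1, Fuca2 and Mrps23 goes down, while Klf6 and Nppb each have 1 line that runs against the rest.

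The steady genes with the highest ratios were led by Ccnl1, a cyclin of the splicing machinery. It stood at 11.6, 79.8 and 172 CPM over the strata of high-load and at 0, 11.2 and 25.2 CPM over those of low-load cells. It was higher in all 8 strata and in 14 of 16 rows, with 44.2 CPM in the middle group. Its fold was 7.55 (interval 4.68 to 12.9), and its log2 ratio of 2.48 was 2.16 within rows and 1.39 in the live and fixed cells. Adamts1, a secreted protease that cleaves matrix proteoglycans, was 6.00-fold higher (interval 3.85 to 9.75) in all 8 strata, but had a log2 ratio of 0.28 in the live and fixed cells. Dleu2, a long non-coding RNA, was 4.28-fold higher (interval 2.91 to 6.49) in all 8 strata, with a log2 ratio of 1.86, of 1.78 within rows and of 1.61 in the live and fixed cells. The last of these was 0.46 in live cells alone and 3.08 in fixed cells alone. Maml2, a coactivator of Notch, was 4.09-fold higher (interval 2.86 to 5.97) in all 8 strata.

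The other named genes on this side had log2 ratios from 1.75 to 1.97. They were Tpm3 (a tropomyosin), Cavin2 (a coat protein of caveolae), Nav1, Foxp2 (a forkhead factor), Sptlc2 (an enzyme of sphingolipid synthesis), Unc13b, Mndal (an interferon-inducible gene with close copies nearby, so that its count is uncertain), and the kinases Map3k2 and Prkd1. Each was higher in 7 of 8 strata. Tpm3 had a log2 ratio of -0.12 without cells over 0.1% of vessel and stroma RNA, and Cavin2 0.90. In the live and fixed cells Cavin2 had -1.55, from 52 UMIs, and Tpm3 0.41.

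On the lower side, Fuca2, which encodes a fucosidase, was lower in the high-load group of every stratum. It stood at 25.1, 38.1 and 134 CPM over the strata of high-load and at 90.5, 153 and 260 CPM over those of low-load cells. It was also lower in 14 of 16 rows, 2.97-fold in all (interval 2.33 to 3.80), although the ranges overlapped between strata. Its log2 ratio of -1.48 was -1.01 within rows and -0.35 in the live and fixed cells. Bdh1, a ketone body enzyme of mitochondria, was lower in 7 of 8 strata and in 15 of 16 rows (2.84-fold, interval 1.97 to 4.16), but had a log2 ratio of 0.21 in the live and fixed cells. Irx4, a homeobox factor of ventricular identity, had -1.41 from 15 and 50 UMIs, and 0.14 in the live and fixed cells. The others were Tmem214, Plpp7, Abtb1, Stoml2, Gatb, Uros, Fzd6, Rbck1 and Phax, at -1.30 to -1.62, of which Abtb1 and the Wnt receptor Fzd6 were lower in all 8 strata.

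**Figure D4:**
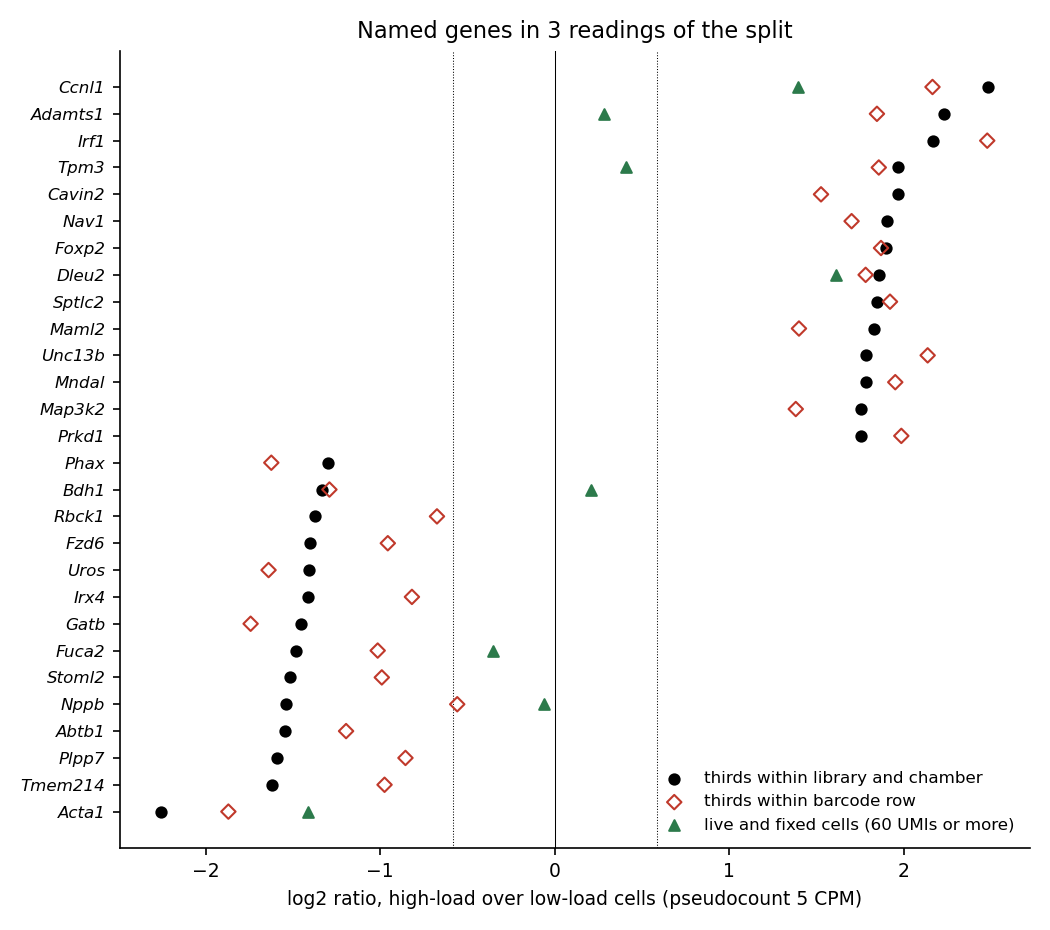
Log2 ratio of high-load over low-load cells (x axis, 5 CPM added) for the 28 named steady genes, with load groups set within library and chamber (filled circles), within barcode row (diamonds) and in the live and fixed cells (triangles, genes with at least 60 UMIs there). Ccnl1, Dleu2 and Acta1 lie past 1.5-fold (dotted lines) on the same side in all 3. In live cells alone, not drawn, Ccnl1 had 0.73, Dleu2 0.46 and Acta1 -0.48, the latter 2 short of 1.5-fold. In fixed cells alone they had 2.18, 3.08 and -1.70.

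Genes of mitochondrial protein synthesis leaned lower. The 71 measured mitochondrial ribosomal protein genes were a list added after values were seen. Of these, 3 were at least 1.5-fold higher and 12 lower, beside 19.1% and 7.24% of all genes. Their median log2 ratio was -0.16 (SD 0.13 over the libraries). Within rows 1 was higher and 13 lower, beside 22.9% and 6.83% of all genes, with a median of -0.14. In the live and fixed cells 5 were higher and 7 lower of 42, beside 16.5% and 7.2%, with -0.15. With all gene UMIs as the total the median was -0.05, with 5 higher and 6 lower of 69. With each cell weighted equally it was 0.02, with 8 higher and 13 lower of 71. With TMM scaling it was -0.29, with 1 higher and 21 lower of 71. Mrps23, a subunit of the small mitochondrial ribosome, stood at 45.8, 62.5 and 115 CPM over the strata of high-load and at 114 to 239 CPM, with a median of 150 CPM, over those of low-load cells. It was lower in all 8 strata and in 15 of 16 rows, 2.41-fold in all (interval 1.93 to 3.03). Mrpl41, of the large subunit, was lower in all 8 strata (2.52-fold, interval 1.94 to 3.31). The 81 measured cytosolic ribosomal protein genes, also added after values were seen, had 0 members past the fold on either side and a median of -0.03.

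Few genes of contraction and energy supply were past the fold, beside 19.1% of all genes higher and 7.24% lower. Of the 2354 genes with at least 200 UMIs a smaller share was past it, with 282 higher and 75 lower. The part of a gene's abundance in the counts of these lists was not tested. The 29 nuclear-encoded oxidative phosphorylation genes had 0 members past the fold on either side and a median log2 ratio of -0.20, with 27 of the 29 below 0. The median was -0.33 with TMM scaling and -0.28 within rows, but -0.02 with all gene UMIs as the total, 0.02 with each cell weighted equally and -0.01 without cells over 0.1% of vessel and stroma RNA. The 23 sarcomere genes had a median of -0.08, which was 0.07 with all gene UMIs as the total, and 1 was past the fold, Myoz2, a Z-disc protein that binds calcineurin, at 755 and 1141 CPM and lower in all 8 strata. Tnnc1, cardiac troponin C, was also lower in all 8 strata, with -0.45. Ttn, the giant spring protein titin, was higher in all 8 strata with 0.33, but had 0.02 within rows. The 15 ventricular myocyte markers had a median of -0.19, with Irx4 the 1 past the fold. The 25 fatty acid oxidation genes had 0 members higher and 1 lower, with a median of 0.02. The 20 glycolysis and glycogen genes had -0.11, with the phosphofructokinase Pfkp (-1.21) and the muscle phosphoglycerate mutase Pgam2 (-0.63) lower, the latter in all 8 strata.

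Genes that process RNA had counts near those of all genes. Of 23 measured ribosome biogenesis and RNA processing genes, 6 were at least 1.5-fold higher and 2 lower, beside 19.1% and 7.24% of all genes. Their median log2 ratio was 0.21, which was 0.01 without cells over 2% of RNA from other cell types and 0.10 without cells over 0.1% of vessel and stroma RNA. Among those higher were the splicing factors Srsf11 (1.36) and Tra2b (1.34) and the RNA helicase Ddx5 (0.83), with 0.63, 0.96 and 0.79 within rows. Srsf11 had 0.15 without cells over 0.1% of vessel and stroma RNA. The 5 long non-coding RNAs that stay in the nucleus had a median of 0.37. Malat1 was 1.41-fold higher (interval 1.36 to 1.46) and Neat1, the scaffold of paraspeckles, had 0.37, each in 7 of 8 strata by the summed levels.

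The ratio also changed with the length of the gene in the genome. With genes in 5 bins of near-equal number by genomic span (borders at 9.39, 23.2, 49.4 and 108 kb), the median log2 ratio was -0.08 in the shortest bin, then 0.01, 0.05 and 0.20, and 0.31 in the longest. At least 1.5-fold higher were 11.1% of the shortest and 30.4% of the longest, and lower were 8.83% and 3.47%. Within rows the shortest had -0.07 and the longest 0.36, and in the live and fixed cells -0.06 and 0.20. The longest bin lay above the shortest in 5 of 8 strata. Its median was 1.16 in LV cells of library B, 0.65 in LV cells of A and 0.43 in RV cells of B. In the remaining strata, among them all those of libraries C and D, it ran only from -0.06 to 0.11. Genes over 100 kb took a median of 21.2% of nuclear-encoded UMIs in high-load and 19.1% in low-load cells. Most early-response genes named above are short, such as Zfp36 at 3.47 kb and Jund at 1.67 kb, but Nr4a1 spans 20.5 kb. All spans are the outer extents of the annotated genes. For Dusp1 this extent was 56.5 kb, but the RefSeq start of its stretch above lies well inside it, so its transcript may be far shorter. By comparison, Pde4b spans 519.7 kb and Slc8a1 365 kb. The part of span in the ratios of the long genes was not tested.

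**Figure D5:**
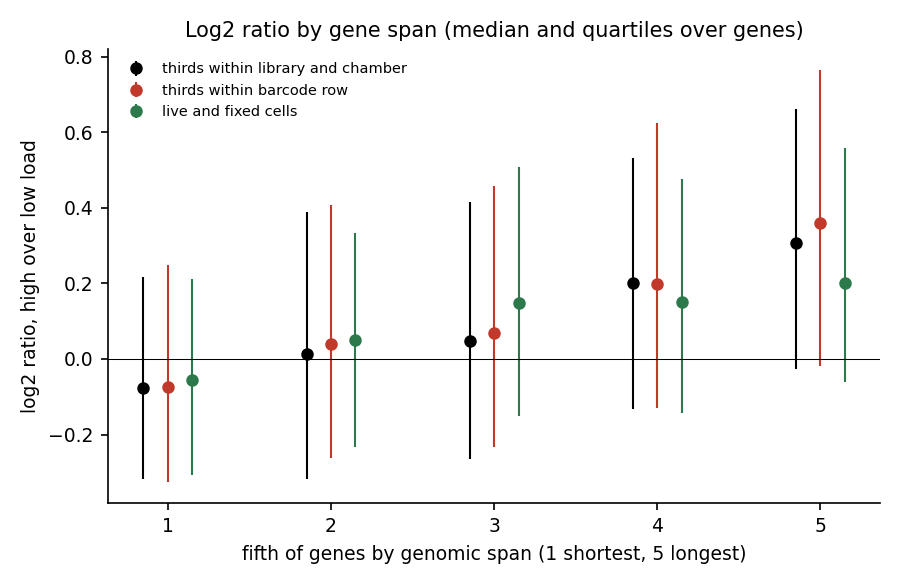
Median log2 ratio of high-load over low-load cells (y axis, points) with quartiles over genes (bars), by bin of genomic span (x axis, 1 shortest to 5 longest), for the 3 ways of setting the load groups. The medians go from -0.08, -0.07 and -0.06 in the shortest bin to 0.31, 0.36 and 0.20 in the longest.

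RNA of other heart cells lay in some wells of both groups. The endothelial markers had 10 of 14 members measured, of which 10 were at least 1.5-fold higher and 0 lower, beside 19.1% and 7.24% of all genes. Members that reached 60 UMIs only through high-load cells had to differ, so the count describes the 10. Their median log2 ratio was 1.40, but 0 of the 10 were steady. Single cells gave much of this difference: Pecam1, the platelet endothelial adhesion molecule, stood at 181 and 26.6 CPM with 61.5% of its UMIs in 1 cell. With the top cell of each gene left out, 6 of 10 were past the fold and the median was 0.65. The endothelial share of nuclear-encoded UMIs was 0.106% over all high-load and 0.034% over all low-load cells, but the medians per cell were 0.022% and 0.016%. Within strata, the median per cell was higher in the high-load group in only 2 of 8 and lower in 6. By library the median of the list was 2.41 in A, 1.27 in B, 0.61 in C and -1.07 in D. Of 4 measured fibroblast markers 3 were higher and 0 lower, beside the same shares of all genes and with the same limit. Mgp, among the 3, had 82.6% of its UMIs in 1 cell. No macrophage, lymphocyte, neutrophil, Schwann or adipocyte marker reached 60 UMIs, and the 6 measured erythroid genes had a median of -0.08.

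The early-response lists were recounted in cells with little such RNA. Vessel and stroma markers took over 0.1% of nuclear-encoded UMIs in 25 high-load and 25 low-load cells. New load groups set without all such cells held 33 and 33 cells. In these, 8 of 14 measured early-response factors were higher and 0 lower, with a median log2 ratio of 0.79. Of 23 feedback genes 7 were higher and 1 lower, with 0.43. Among all 4171 genes measured in this setting, 15.1% were higher and 9.54% lower. Acta1 had -2.63 there and Pde4b 0.98.

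The same split was made in the live and fixed cells of the second study. Of 61 with at least 10000 gene UMIs, 20 high-load and 20 low-load cells were set within the live and the fixed label, with median loads of 1180 and 295. The median load was 1171 in live and 458 in fixed cells. The main haemoglobin genes differed there far more than in the chamber study, with log2 ratios of 4.53 for Hbb-bs and 4.52 for Hba-a1, against -0.10 and -0.22, each of which has a near-identical copy. Of 12 measured early-response factors 9 were higher and 2 lower, with a median log2 ratio of 1.00. Of 13 feedback genes 5 were higher and 0 lower, with 0.41. Among all genes measured there, 16.5% were at least 1.5-fold higher and 7.2% lower. Of the 256 steady higher genes 120 were measured there, 97 of these were on the same side and 49 past the fold, where 57.2% of all genes measured lay above 0. Of the 128 steady lower genes 61 were measured, 36 were on the same side and 12 past the fold. For these the background is the 7.2% of all genes past the fold on the lower side, with 57.2% of all genes on the opposite side of 0.

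The genes whose rank over cells was most like that of the load included several of those above. Ranks were taken within strata over the 175 cells for 2233 genes with at least 200 UMIs, and the correlation had a median of 0.03, with 5% of genes below -0.12 and 5% above 0.20. Zfp36 stood first at 0.44, followed by Pde4b at 0.36, the signalling gene Fgf14 at 0.35, Slc8a1 at 0.33 and Malat1 at 0.32. At the other end stood Ptgds, the prostaglandin D synthase, at -0.33, then B3glct at -0.32, Afm and Mir6240 at -0.29, Myo3a and Kidins220 at -0.28 and Nkain2 and CT010467.1 at -0.27. Of the genes described above, Acta1 followed at -0.27 and Mrps23 at -0.26. CT010467.1 is a ribosomal RNA gene with 268293 UMIs over both groups. The 2 measured ribosomal RNA genes took 7.49% of nuclear-encoded UMIs in high-load and 8.38% in low-load cells. They lie in the total that divides the load, and the part of this in the ranks was not tested. Ptgds stood at 175 and 429 CPM (2.45-fold lower, interval 2.14 to 2.81) and was lower in 7 of 8 strata, with a log2 ratio of -2.18 in LV and -0.63 in RV cells. It was named after its values were seen.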

How the data were processed

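The authors deposited tables of UMI counts and read counts per gene and cell barcode, not normalized, with per-cell tables of chamber, library and totals. The submitters' processing notes name STAR 2.5.4b, featureCounts and GRCm38. Not given in the sources used here: how UMIs were collapsed, which annotation was used and whether strand was read. Genes that overlap, on either strand, may share reads. Of 24522 gene IDs, 24489 matched a symbol of GENCODE M21. Not used were 45 barcode columns that carry no cell label. Of 84 distinct cell barcodes, 80 occurred in all 4 libraries. No doublet caller was run.

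UMIs were summed over the cells of each group and divided by nuclear-encoded UMIs (1771910 in high-load and 1619053 in low-load cells). For log2 ratios 5 CPM was added to both levels, which shrinks the ratio of a low gene, and folds are of CPM without it. Genes with at least 60 UMIs over both groups were measured. With no animal named, the cells count as 1 sample and nothing was tested. Named genes were the 15 highest and 15 lowest steady log2 ratios, all members of the 2 early-response lists, and of each other list the 3 with the most UMIs and the 2 with the largest absolute ratio. Predicted genes are counted without names, as are 2 genes whose results are not reported here. The members, lists and alternatives were chosen with earlier results of these data known, and the split within barcode rows, the vessel filter, the span correction and the ribosomal protein lists were added after values were seen. Alternatives were other totals, TMM and median-of-ratios scaling, equal weight per cell, read counts, pseudocounts, gene and cell minimums, thinning to 10000 UMIs, other cuts and other load genes, each chamber alone, and each library, other cells' RNA or top cell left out. The computation was tested on simulated counts. Promoters came from RefSeq. TMM factors came from edgeR 4.0.16 in R 4.3.3, sums and intervals from pandas 2.3.3, numpy 2.4.6 and scipy 1.17.1 in Python 3.11.15, and plots from matplotlib 3.10.9.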

Additional observations from a re-analysis of the deposited data

How the results depend on the processing

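No paired analysis was possible because the cells form 1 sample with no animal named and no test was run. Under all 30 alternatives both early-response lists kept a median above 0, and the stretch list one below 0. The count of genes at least 1.5-fold higher (1210) was 2080 and the count lower (459) was 163 with all gene UMIs as the total, 1844 and 1188 from read counts, 753 and 208 with a pseudocount of 20 CPM, 2416 and 1107 with a minimum of 20 UMIs, 282 and 75 with 200 UMIs, 139 and 61 with each cell thinned to 10000 UMIs, and 125 and 66 with load groups within barcode rows in thinned cells. The lower count was 741 with TMM scaling. The higher count was 597 in RV cells alone, 679 without cells over 2% of other cell types' RNA and 629 without cells over 0.1% of vessel and stroma RNA. Without each library in turn the higher count ran from 876 to 1188, the lower from 409 to 506, the median of the early-response factors from 0.80 to 1.22 and that of the feedback genes from 0.45 to 0.65. The factors' median (0.93) was 0.45 within rows in thinned cells. The feedback median (0.55) was 0.42 with TMM, 0.68 from reads, 0.36 with the load from thinned cells, 0.27 with sums thinned too, 0.37 with 2 load groups in place of 3, 0.40 with the load from Jun, Junb and Atf3, 0.91 in LV cells alone, 0.33 within rows and 0.33 within rows in thinned cells. The cause of these moves was not tested beyond fewer genes or cells in the filtered and thinned settings.

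Some signs turned. The interferon list had a median of -0.30 with equal weight per cell and -0.23 in thinned cells. The NF-kappaB list had -0.18 with a minimum of 200 UMIs, -0.012 with load groups set over all ventricular cells, -0.19 without library A (up to 0.77 without another library, D), -0.14 with each gene's top cell removed and -0.25 within rows in thinned cells. The mural list had -0.17 with groups over all ventricular cells, -0.31 with the load from Jun, Junb and Atf3, -0.014 without cells over 2% of other cell types' RNA and -0.30 without vessel and stroma RNA, a setting that gave -0.24 for the fibroblast list and -0.12 for Tpm3. Within rows in thinned cells, Map3k2 had -0.51, Uros 0.37, Fzd6 0.11 and Rbck1 0.71. The other 23 of 28 named genes kept their side under all 30 alternatives, and 14 stayed past 1.5-fold. Levels under about 20 CPM rest on few UMIs, and the intervals do not cover differences between cells or animals.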

Other observations

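Of all genes 19.1% were at least 1.5-fold higher and 7.24% lower. Several stress lists held single genes that were far apart between high-load and low-load cells while the list as a whole was not. Of 14 measured antioxidant and metallothionein genes 1 was at least 1.5-fold higher and 1 lower, with a median log2 ratio of 0.10. The higher gene was Gclc, the catalytic subunit of the first enzyme of glutathione synthesis, at 33.9 and 7.41 CPM and higher in 7 of 8 strata, with log2 ratios of 1.65, of 1.05 within rows and of 1.55 in the live and fixed cells, where it had 26 UMIs. Of 24 heat shock and chaperone genes 3 were higher and 1 lower, with a median of -0.02. Hspa1b, an inducible chaperone whose count is uncertain because of its near copy Hspa1a, had 0.88, whereas Cryab, the abundant alpha B-crystallin of heart muscle, stood at 2059 and 2655 CPM and was lower in all 8 strata.

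Of 7 measured p53 targets 4 were higher and 0 lower, with a median log2 ratio of 0.65. Btg2 is a member of this list and of the feedback list. Mdm2, the ubiquitin ligase that degrades p53, stood at 46.8 and 21.6 CPM with log2 ratios of 0.96, of 1.38 within rows and of 1.22 in the live and fixed cells, whereas Ccng1, the most abundant target, had -0.43. Of 9 integrated stress response genes 1 was higher and 1 lower, with a median of 0.33. Of 16 ubiquitin ligase and autophagy genes 3 were higher and 0 lower with 0.19, of 19 translation factors 3 higher and 0 lower with 0.10, and of 7 clock genes 1 higher and 0 lower with 0.24, shares on the higher side at or below the 19.1% of all genes. The clock gene was Hlf, at 35.6 and 11.7 CPM, with log2 ratios of 1.28, of 1.55 within rows and of 2.17 in the live and fixed cells. Of 22 cardiac transcription factors 2 were higher and 2 lower, with a median of 0.07, and Tbx20 had 0.91 but 0.13 without cells over 0.1% of vessel and stroma RNA.

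Of 6 measured interferon-stimulated genes 3 were higher, with a median log2 ratio of 0.84, and of 5 NF-kappaB genes 3 were higher with 0.59. In these lists single cells weighed heavily. The antigen-presentation genes H2-D1 and B2m had 43.4% and 26.9% of their UMIs in 1 cell, and Nfkbiz, an inhibitor of NF-kappaB, had 43.0%. Of the 3 measured mural genes 2 were higher and 1 lower with 0.73. Of the 3 endocardial genes 2 were higher with 1.91, and Cytl1 had 79.6% of its UMIs in 1 cell. The 2 mesothelial genes had a median of 0.25.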
